A study of Mus musculus with 6 samples.

Results

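The cytosolic heat shock proteins described here are 10 genes taken by symbol from an expression table of 17256 genes, and the table held all 10. They are Hspa1a, Hspa1b, Hspa8, Hsph1, Hsp90aa1, Hsp90ab1, Dnajb1, Dnaja1, Hspb1 and Hsf1. All 10 also passed the expression filter that left 13071 genes for testing. RNA was sequenced from the epithelium of the antrum, the last part of the stomach, of C57BL/6 mice. In both groups atrophic gastritis had been induced over 20 weeks with MNNG, an alkylating carcinogen, and a drug written as Ranitine. The PEEPA-P5 group, with 3 libraries, then received PEEPA-P5 by gavage for 2 weeks, and the vehicle group, also with 3 libraries, received vehicle for 2 weeks. PEEPA-P5 is known here by that code name only, and no group without MNNG was analysed here. Whether each library is from its own mouse is not stated in the labels, so the p-values rest on library-to-library spread that may be technical.

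Heat shock proteins are chaperones that hold, refold or hand on unfolded proteins in the cytosol. Members of the HSP70 family bind short greasy stretches of a client in a cycle driven by ATP, J-domain proteins bring the clients and start the ATP step, and HSP110 proteins swap the nucleotide. HSP90 takes over clients at a later stage of folding, among them kinases and steroid receptors, and small heat shock proteins hold unfolded proteins without using ATP. Heat shock factor 1 binds repeated GAA units, called heat shock elements, in promoters of such genes when unfolded protein builds up. Gastric epithelium faces acid, and inducible heat shock proteins are known there as part of its response to injury.

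Hspa1a and Hspa1b are near copies of each other on mouse chromosome 17 and carry almost the same promoter. Their promoters are shown because 1 library stood far above all others for both genes, and those of Hspb1 and Hsph1 because they hold further heat shock units. The sequences are from RefSeq on build GRCm38.p6, from 250 bases before the transcript start to 50 after it, on the strand of the gene, whereas the submitters' processing notes name mm9. Capitals mark the inverted pairs GAANNTTC and TTCNNGAA, each of which reads the same on both strands.
Hspa1a, chr17:34972107-34972406, minus strand: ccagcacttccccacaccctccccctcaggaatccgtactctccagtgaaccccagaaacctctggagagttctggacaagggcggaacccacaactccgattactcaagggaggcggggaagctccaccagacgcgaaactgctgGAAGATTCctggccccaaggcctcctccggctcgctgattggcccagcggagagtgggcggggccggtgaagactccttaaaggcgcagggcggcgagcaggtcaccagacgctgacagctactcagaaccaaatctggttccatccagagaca
Hspa1b, chr17:34959189-34959488, minus strand: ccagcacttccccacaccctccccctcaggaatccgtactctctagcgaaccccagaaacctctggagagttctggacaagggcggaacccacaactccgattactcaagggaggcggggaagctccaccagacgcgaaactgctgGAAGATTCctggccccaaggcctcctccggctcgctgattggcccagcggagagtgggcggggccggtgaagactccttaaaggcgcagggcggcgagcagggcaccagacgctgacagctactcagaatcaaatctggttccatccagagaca
Hspb1, chr5:135887669-135887968, plus strand: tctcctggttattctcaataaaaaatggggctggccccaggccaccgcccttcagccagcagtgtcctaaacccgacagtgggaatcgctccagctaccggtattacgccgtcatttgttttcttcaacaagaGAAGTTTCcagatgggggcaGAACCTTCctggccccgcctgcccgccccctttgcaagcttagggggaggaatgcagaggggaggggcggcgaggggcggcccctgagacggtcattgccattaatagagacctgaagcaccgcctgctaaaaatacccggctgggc
Hsph1, chr5:149636287-149636586, minus strand: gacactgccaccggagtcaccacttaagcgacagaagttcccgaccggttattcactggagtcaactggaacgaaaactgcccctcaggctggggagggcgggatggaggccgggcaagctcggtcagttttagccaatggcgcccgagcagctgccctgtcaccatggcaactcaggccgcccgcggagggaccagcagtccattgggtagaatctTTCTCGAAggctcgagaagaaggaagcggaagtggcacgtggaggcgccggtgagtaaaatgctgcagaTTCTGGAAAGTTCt

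Over their 300 bases the Hspa1a and Hspa1b promoters differed at 4 positions, none of them in the marked pair, whose first base lay at -104 from the transcript start in both. Hspb1 held 2 such pairs, at -117 and -97. Hsph1 held a pair at -33 and, past its start, a run of 3 units written TTCNNGAANNTTC; it had a second listed window, which overlaps the one shown. Of the 10 genes, 6 had promoters in the RefSeq table, 5 of these held at least 1 pair in a listed promoter, and Dnajb1 held none in its 2 windows. Counted by window, 6 of their 10 promoters held a pair. Among all 32851 promoters of that length, 15.1% held either pair, 7.86% held GAANNTTC, 8.52% held TTCNNGAA and 0.603% held 3 units as GAANNTTCNNGAA or TTCNNGAANNTTC. The 3-unit matches overlap the pairs. A match describes these letters and does not show that a factor binds there.

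The epithelial label was checked against marker genes. Epcam, Cdh1, Krt8, Krt18 and Krt19, markers of epithelium, summed to 13550, 13734 and 14005 TPM with PEEPA-P5, against 12933, 11200 and 9085 TPM with vehicle. In CPM all 5 were higher with PEEPA-P5 without group overlap, as were all 4 surface mucous markers, beside 9.74% of all genes tested. The part of this difference in the results below was not tested. Surface mucous markers summed to 340563, 344203 and 386695 TPM (the authors' transcript level, scaled for transcript length and library) in the PEEPA-P5 libraries, against 337457, 301051 and 292665 TPM in the vehicle libraries. Gast, the gastrin gene of the antrum, was at 7032, 4990 and 199 TPM with PEEPA-P5, against 9492, 6822 and 610 TPM with vehicle, so libraries numbered 3 were low in both groups. Markers of parietal cells, which belong to the body of the stomach, summed to 5.93, 353 and 0.94 TPM with PEEPA-P5, against 373, 1675 and 3224 TPM with vehicle. Chief cell markers summed to 6570, 8896 and 2073 TPM with PEEPA-P5, against 8360, 22963 and 68588 TPM with vehicle, so both lists differed between libraries by large factors and their part in the results below was not tested. Total counts ran from 16388852 to 16903559. Counts per gene were compared between 2 libraries at a time, as the chi-square divided by its degrees of freedom. This was 13.3 to 16.4 between PEEPA-P5 1, PEEPA-P5 2 and vehicle 1, the closest libraries. PEEPA-P5 3, vehicle 2 and vehicle 3 stood apart from these. For PEEPA-P5 3 it was 41.3 to 54.7 against the other PEEPA-P5 libraries and vehicle 1, and 123.4 against vehicle 2. For vehicle 2 it was 67.0 and 54.1 against PEEPA-P5 1 and 2, and below 54.7 against vehicle 1. For vehicle 3 it was 96.8 to 222.2 against the other 5. PEEPA-P5 3 had the lowest levels of several marker lists, but not of all. Summed leukocyte markers were at 40.6, 71.9 and 46.5 TPM with PEEPA-P5, against 103, 87.7 and 44.5 TPM with vehicle. Of these, Ptprc and Lyz2 were lowest in PEEPA-P5 3, and Cd74 was not. PEEPA-P5 3 was lowest in the lists that follow. Its summed fibroblast markers were at 4.94 TPM, against 46.3 and 72.1 TPM in the other PEEPA-P5 libraries and 38.5 to 108 TPM in vehicle libraries. Its summed endothelial markers were at 1.51 TPM, against 5.70 and 8.79 TPM and, with vehicle, 8.44 to 14.6 TPM, and its enteroendocrine markers at 281 TPM, against 7769 and 5849 TPM and, with vehicle, 3971 to 11184 TPM. All 4 enteroendocrine, 5 fibroblast and 4 endothelial markers were above 0 in all 6 libraries. In bulk tissue, fewer cells of a type and less RNA per cell cannot be told apart. Tff1 alone took 28.6% of the TPM of PEEPA-P5 3 and 20.8% to 24.5% of the others, so libraries are compared below in CPM, counts relative to library totals scaled by TMM factors, and genes are compared with each other in TPM.

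The 10 genes spanned a wide range of levels. Hspa8, the constitutive HSP70 of the cytosol, had the highest mean, at 755 TPM over the 6 libraries, above 98.9% of the genes tested. Hsp90ab1, the constitutive HSP90, followed at 539 TPM, and the ranges of these 2 genes overlapped. Hsp90aa1, the inducible HSP90, was at 116 TPM and Dnaja1, a J-domain partner of HSP70, at 36.6 TPM, and neither range touched that of the next gene. Hsf1, Dnajb1, Hspa1b, Hspb1, Hsph1 and Hspa1a followed at means of 15.7, 15.5, 11.3, 8.50, 6.60 and 4.84 TPM, and each of these ranges overlapped the next. The 10 genes summed to 3305, 3279 and 3599 CPM in PEEPA-P5 libraries, against 2930.3, 2848 and 3390.0 CPM in vehicle libraries, and these groups overlapped. Within each library Hspa8 made up 33.6%, 41.4% and 57.1% of the summed TPM with PEEPA-P5, against 54.8%, 53.8% and 59.9% with vehicle.

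**Figure D1:**
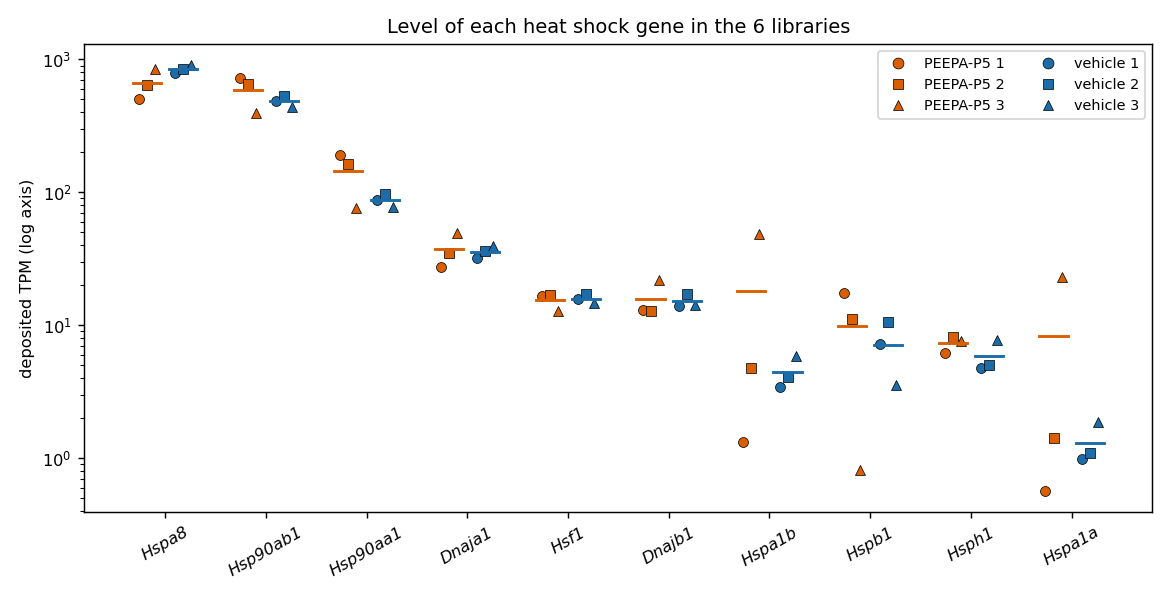
Deposited TPM (log axis) of the 10 heat shock genes, ordered by mean level; points are single libraries, PEEPA-P5 left of vehicle, and lines are group means. PEEPA-P5 3 stands alone at 48.4 TPM for Hspa1b and 23.1 TPM for Hspa1a, and at the bottom for Hspb1 with 0.81 TPM.

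In the comparison of PEEPA-P5 with vehicle by edgeR's quasi-likelihood test, 0 of the 10 genes passed an adjusted p under 0.05, as did 0 of the 13071 genes tested (0%). The smallest adjusted p was 0.412 both among the 10 and over all genes. DESeq2 gave no p for Hspa1a and called 0 of the other members, with a smallest adjusted p of 0.107. It called 0.788% of the genes to which it gave an adjusted p, and limma-voom called 0 genes in all. At an unadjusted p under 0.05 in edgeR's test, 1 of the 10 was higher and 0 lower, beside 5.92% higher and 6.14% lower over all genes tested. The groups did not overlap in CPM for 1 of the 10, which was higher, beside 9.74% higher and 10.7% lower over all genes. The fold change was above 0 for 9 of the 10 and the median log2 fold change of the 10 was 0.36, against -0.00467 over all genes tested. Without PEEPA-P5 3 that median was -0.03, and 4 of the 10 genes had the other sign. Without vehicle 3 the median was 0.35.

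**Figure D2:**
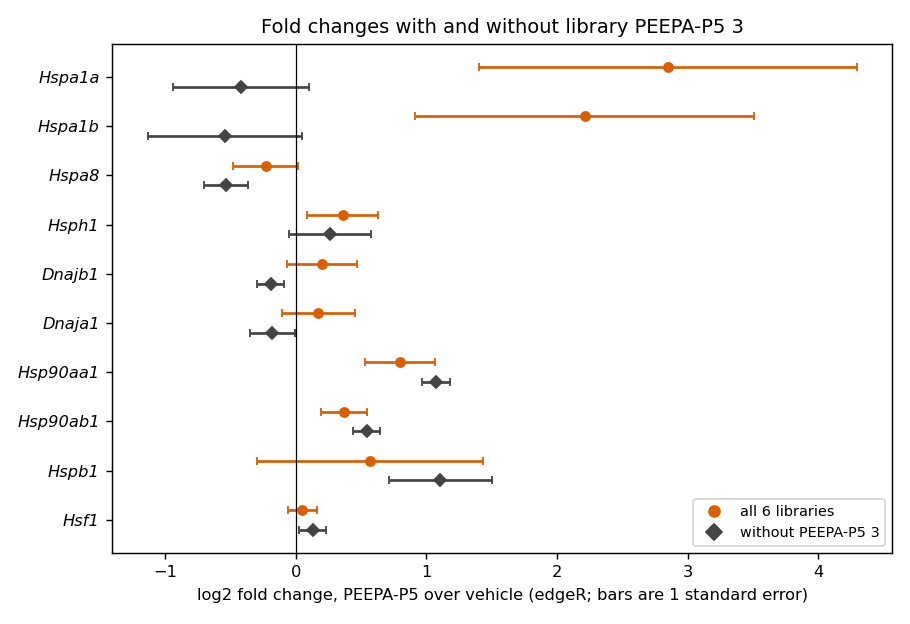
Log2 fold change, PEEPA-P5 over vehicle, of each gene with all 6 libraries (circles) and without PEEPA-P5 3 (diamonds); bars are 1 standard error from edgeR. Hspa1a stands at 2.85 with and -0.42 without that library, and Hsp90aa1 at 0.80 with and 1.07 without it.

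The inducible HSP70 genes stood out in 1 PEEPA-P5 library. Hspa1a (Entrez 193740) was at 1.45, 3.56 and 68.0 CPM in PEEPA-P5 1, 2 and 3, against 2.47, 2.48 and 5.19 CPM in vehicle 1, 2 and 3. Hspa1b (Entrez 15511) was at 3.49, 12.1 and 143 CPM with PEEPA-P5, against 8.63, 9.17 and 16.5 CPM with vehicle. For both genes PEEPA-P5 3 was the highest library and PEEPA-P5 1 the lowest, with all vehicle libraries between them. PEEPA-P5 3 was at 13.1 times the next highest library for Hspa1a and 8.68 times for Hspa1b. The log2 fold change was 2.85 with a standard error of 1.45 for Hspa1a (edgeR adjusted p 0.469). For Hspa1b it was 2.21 with a standard error of 1.30 (edgeR adjusted p 0.507).

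Without PEEPA-P5 3 these 2 fold changes were -0.42 ± 0.52 and -0.54 ± 0.59 (SE, edgeR adjusted p 0.787 and 0.761). With the replicate number as a block they were 1.36 and 0.86 (edgeR adjusted p 0.502 and 0.639). DESeq2 returned no p for Hspa1a. The 2 genes share reads: 63.8% of the 31-base stretches of Hspa1a occur in Hspa1b and 67.6% of those of Hspa1b in Hspa1a, so the split of reads between them is uncertain. Summed over both copies, the level was 4.94, 15.7 and 211 CPM with PEEPA-P5, against 11.1, 11.7 and 21.7 CPM with vehicle, and the log2 fold change of the sum was 2.38 ± 1.34 (SE, edgeR adjusted p 0.495). Hspa1b gave 70.0%, 77.3% and 67.7% of the summed TPM with PEEPA-P5, against 77.8%, 78.7% and 76.1% with vehicle. Even in PEEPA-P5 3 the 2 inducible genes made up 7.77% of the HSP70 transcripts counted with Hspa8, and 0.375% to 0.956% in the other libraries. The low marker sums of PEEPA-P5 3 for fibroblasts, endothelium and enteroendocrine cells stand beside its high Hspa1a and Hspa1b; their part in it was not tested.

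The constitutive Hspa8 was lowest in PEEPA-P5 1 and 2. Hspa8 (Entrez 15481) was at 950, 1176 and 1818 CPM in PEEPA-P5 1, 2 and 3, against 1434, 1368 and 1827 CPM in vehicle 1, 2 and 3. PEEPA-P5 1 and 2 were below all vehicle libraries, and PEEPA-P5 3 was close to vehicle 3. The log2 fold change was -0.23 ± 0.25 (SE, edgeR adjusted p 0.700), and -0.53 ± 0.17 without PEEPA-P5 3 (edgeR adjusted p 0.556). Without PEEPA-P5 1 it was -0.0429 and without vehicle 3 it was -0.0933 (edgeR adjusted p 0.957 and 0.915). Hspa8 was lower in 3 of 3 same-numbered pairs, at -0.59, -0.22 and -0.00747 log2 CPM units, PEEPA-P5 minus vehicle. The labels do not state such pairs, and how many of all genes moved 1 way in 3 of 3 was not counted. Hsph1 and Hsp90aa1 were higher in 3 of 3, and the rest of the 10 were mixed. With the replicate block the log2 fold change of Hspa8 was -0.27 (edgeR adjusted p 0.409). Transcripts of other genes, nearly all outside the table, hold 43.5% of the 31-base stretches of Hspa8.

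Hsph1 (Entrez 15505), an HSP110 protein that exchanges the nucleotide of HSP70, was at 19.6, 25.1 and 27.3 CPM with PEEPA-P5, against 14.9, 14.1 and 27.2 CPM with vehicle. Vehicle 3 lay with the higher PEEPA-P5 libraries, and the other vehicle libraries were the lowest of the 6. The log2 fold change was 0.36 ± 0.27 (SE, edgeR adjusted p 0.591), 0.72 without vehicle 3 (edgeR adjusted p 0.665), 0.19 without vehicle 2 (edgeR adjusted p 0.885) and 0.22 without vehicle 1 (edgeR adjusted p 0.772). It was higher in 3 of 3 same-numbered pairs, by 0.39, 0.82 and 0.00708 log2 CPM units, and 0.41 with the replicate block (edgeR adjusted p 0.370).

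The J-domain partners of HSP70 had their highest level in PEEPA-P5 3 as well, by a smaller step. Dnajb1 (Entrez 81489), the HSP40 that works with inducible HSP70, was at 36.4, 35.0 and 69.7 CPM with PEEPA-P5, against 38.0, 41.6 and 43.2 CPM with vehicle. PEEPA-P5 1 and 2 were below all vehicle libraries, and PEEPA-P5 3 was at 1.61 times the highest of the others. Dnaja1 (Entrez 15502) was at 87.2, 109 and 181 CPM with PEEPA-P5, against 98.9, 100.2 and 135 CPM with vehicle. It had PEEPA-P5 1 as its lowest library and PEEPA-P5 3, at 1.34 times vehicle 3, as its highest. Their log2 fold changes were 0.20 ± 0.27 and 0.17 ± 0.28 (SE, edgeR adjusted p 0.757 and 0.800), and -0.19 and -0.18 without PEEPA-P5 3.

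The HSP90 genes were highest in PEEPA-P5 1 and 2. Hsp90aa1 (Entrez 15519) was at 509, 423 and 229 CPM in PEEPA-P5 1, 2 and 3, against 225, 222 and 220 CPM in vehicle 1, 2 and 3. The vehicle libraries differed by 1.02-fold at most. PEEPA-P5 1 and 2 lay 1.19 and 0.93 log2 CPM units above their mean, and PEEPA-P5 3 stood just above the vehicle range. In TPM the groups overlapped, at 192, 165 and 76.2 TPM with PEEPA-P5 and 88.3, 97.0 and 77.6 TPM with vehicle. Hsp90aa1 is the gene among the 10 with an unadjusted p under 0.05 and with groups that did not overlap in CPM. Its log2 fold change was 0.80 ± 0.27 (SE, edgeR p 0.0212, adjusted p 0.412). By DESeq2 it was 0.80 with an adjusted p of 0.107.

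Hsp90ab1 (Entrez 15516) was at 1657, 1457 and 1036 CPM with PEEPA-P5, against 1075, 1056 and 1084 CPM with vehicle. PEEPA-P5 1 and 2 again lay above all vehicle libraries, and PEEPA-P5 3 below them. The log2 fold change was 0.37 ± 0.18 (SE, edgeR adjusted p 0.437), and 0.22 without PEEPA-P5 1 (edgeR adjusted p 0.670). Hsp90aa1 made up 21.0%, 20.1% and 16.1% of the TPM of the 2 HSP90 genes with PEEPA-P5, against 15.4%, 15.4% and 15.0% with vehicle. The inducible form thus had a larger share in every PEEPA-P5 library, but by little in PEEPA-P5 3. How many other gene pairs separate the groups this way was not counted. The ratio of Hspa8 to summed HSP90 TPM was 0.552, 0.785 and 1.79 with PEEPA-P5, against 1.38, 1.34 and 1.75 with vehicle. Transcripts of other genes hold 51.4% of the 31-base stretches of Hsp90aa1 and 13.2% of those of Hsp90ab1, but genes in the table hold 0.176% and 0.0957%.

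**Figure D3:**
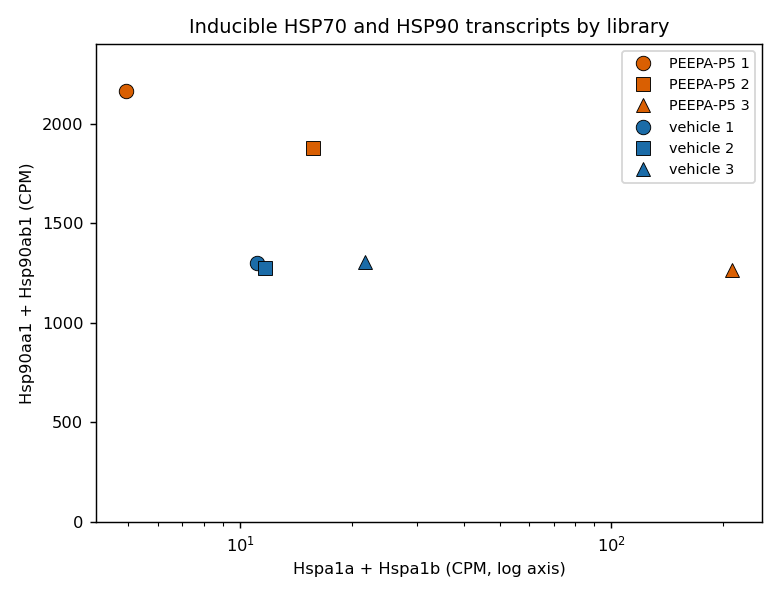
Summed Hspa1a and Hspa1b (CPM, log axis) against summed Hsp90aa1 and Hsp90ab1 (CPM) in each library. The vehicle libraries lie together at 1301, 1278 and 1305 CPM of HSP90, PEEPA-P5 1 and 2 above them at 2165 and 1880 CPM, and PEEPA-P5 3 at 1265 CPM with 211 CPM of Hspa1a and Hspa1b.

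Hspb1 (Entrez 15507), the small heat shock protein HSP25, was likewise highest in PEEPA-P5 1 and 2, with a wider spread. It was at 11.6, 7.18 and 0.605 CPM with PEEPA-P5, against 4.54, 5.99 and 2.50 CPM with vehicle. PEEPA-P5 1 and 2 were the highest of the 6 libraries and PEEPA-P5 3, with an expected count of 9, the lowest. Transcripts of other genes, none of them in the table, hold 52.3% of its 31-base stretches. The log2 fold change was 0.57 ± 0.87 (SE, edgeR adjusted p 0.788), and 1.11 ± 0.39 without PEEPA-P5 3 (edgeR adjusted p 0.556). Hsf1 (Entrez 15499), the transcription factor of the heat shock response, was at 30.2, 31.8 and 26.2 CPM with PEEPA-P5, against 28.0, 28.8 and 28.5 CPM with vehicle. It varied least of the 10, by 1.21-fold from the lowest library to the highest, with a log2 fold change of 0.05 ± 0.11 (SE, edgeR adjusted p 0.855). PEEPA-P5 3 was the lowest of the 6 libraries and PEEPA-P5 1 and 2 the highest. On log2 TPM with a pseudocount of 1, fitted with limma, the difference had the other sign, at -0.0216 for Hspb1 and -0.0515 for Hsf1.

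**Figure D4:**
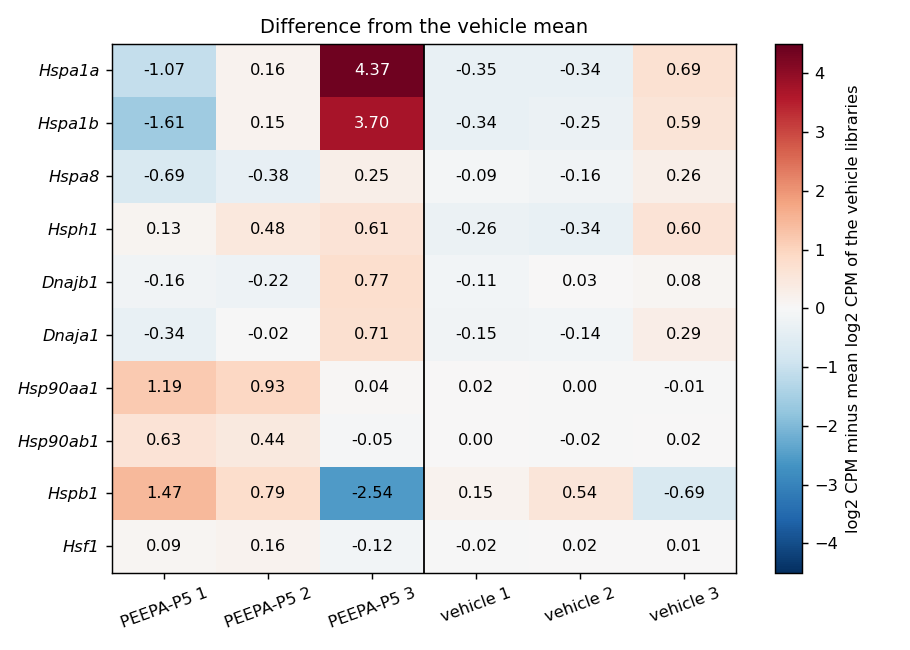
Log2 CPM of each gene in each library minus its mean over the vehicle libraries. PEEPA-P5 3 is at 4.37 for Hspa1a and -2.54 for Hspb1, while PEEPA-P5 1 is at 1.19 for Hsp90aa1 and -1.61 for Hspa1b.

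With PEEPA-P5 3 left out, 3 of the 10 genes (Hsp90aa1, Hsp90ab1 and Hspb1) were higher at an unadjusted p under 0.05 in edgeR's test and 1, Hspa8, was lower. Over all genes tested in that fit 3.85% were higher and 4.92% lower. The log2 fold change was then 1.07 ± 0.11 for Hsp90aa1 (SE, edgeR adjusted p 0.404). For Hsp90ab1 it was 0.54 ± 0.11 (SE, edgeR adjusted p 0.556). No gene of the 10 passed the adjusted threshold in that fit either. The number of the 10 at an unadjusted p under 0.05 was 2 without PEEPA-P5 1, 0 without PEEPA-P5 2, 1 without vehicle 1, 0 without vehicle 2 and 1 without vehicle 3.

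The genes around this core were described from lists by role, in which 0 tested genes passed the adjusted threshold in edgeR's test, as over all genes. These lists were chosen with earlier results of these data known. Each count at an unadjusted p under 0.05 below stands beside the 5.92% higher and 6.14% lower over all genes tested. HSP90 co-chaperones had 11 of 18 genes higher and a median log2 fold change of 0.11, with 2 higher and 0 lower at an unadjusted p under 0.05 in edgeR's test. Fkbp4, an immunophilin that joins HSP90 to steroid receptors, was at 208, 205 and 141 CPM with PEEPA-P5, against 170, 161 and 176 CPM with vehicle. Stip1, which links HSP70 to HSP90, was at 119, 126 and 83.8 CPM, against 90.2, 87.5 and 96.5 CPM with vehicle. Both had PEEPA-P5 1 and 2 as their highest libraries and PEEPA-P5 3 as their lowest, as did Hsp90ab1. Cdc37, which brings kinases to HSP90, had a log2 fold change of -0.17 ± 0.13 (SE).

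HSP70 exchange factors and regulators had 5 of 9 genes higher and a median of 0.05. Bag1, Stub1, a ubiquitin ligase bound to chaperones, and St13 had log2 fold changes of 0.20, 0.22 and 0.05. The other HSP70 family genes had 4 of 8 higher and a median of -0.04, with 1 lower and 0 higher at an unadjusted p under 0.05, and Hspa4, an HSP110 relative, averaged 187 ± 19.2 CPM in PEEPA-P5 libraries and 181 ± 7.04 CPM in vehicle libraries (SD, n = 3 each). Hspa14 and Hspa13 had log2 fold changes of 0.10 and -0.12. Other cytosolic J-domain proteins had 6 of 15 tested genes higher and a median of -0.12, with 1 higher and 1 lower at an unadjusted p under 0.05. Dnajb6, Dnajc7 and Dnajc8 had log2 fold changes of 0.16, 0.15 and -0.16.

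Of the genes listed here as other small heat shock proteins, 7 of 9 were in the table and 5 were tested. Among these 1, Hspb11, was higher and 4 were lower, with a median of -0.83. Hspb6, the 1 that was lower at an unadjusted p under 0.05 in edgeR's test, averaged 4.54 ± 0.804 CPM in PEEPA-P5 libraries and 8.22 ± 3.24 CPM in vehicle libraries, Cryab 1.41 ± 1.07 CPM and 2.53 ± 0.602 CPM, and Hspb11 5.87 ± 0.166 CPM and 4.37 ± 0.397 CPM (SD, n = 3 each). Hspb6 and Cryab are known as muscle chaperones, and the summed smooth muscle markers were at 41.0, 108 and 7.55 TPM with PEEPA-P5, against 109, 146 and 55.5 TPM with vehicle; the part of those cells was not tested. The TRiC chaperonin and prefoldin, which fold actin and tubulin, had 10 of 14 tested genes higher with a median of 0.06, 1 of them at an unadjusted p under 0.05, and their abundant genes Pfdn5, Cct2 and Tcp1 had log2 fold changes of 0.13, -0.03 and 0.01.

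Among the other heat shock factors and regulators 3 of 4 tested genes were higher, with a median of 0.20. Hsf2, a relative of Hsf1, averaged 13.4 ± 3.02 CPM in PEEPA-P5 libraries and 11.9 ± 0.800 CPM in vehicle libraries, and Hsbp1, which binds heat shock factor 1, averaged 117 ± 20.8 CPM and 99.9 ± 9.74 CPM (SD, n = 3 each). Hsf4 had a log2 fold change of -1.07 ± 0.52 (SE, edgeR adjusted p 0.441).

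A list of 20 genes outside the 10, known as targets of heat shock factor 1, had 16 higher and a median of 0.17. Some, among them Fkbp4, Stip1, Cryab, Tcp1, Hspe1 and Hspd1, are also in other lists here, so the list counts are not separate evidence. This list had 2 higher and 0 lower at an unadjusted p under 0.05 in edgeR's test, beside 5.92% and 6.14% over all genes. Without PEEPA-P5 3 its median was 0.26, with 8 higher and 0 lower at an unadjusted p under 0.05, beside 3.85% and 4.92% over all genes in that fit. The targets did not share 1 pattern. In PEEPA-P5 3, 6 of the 20 were at their highest level of the 6 libraries and 10 at their lowest, where over all genes tested 28.6% were highest and 31.4% lowest there. Bag3, an HSP70 exchange factor, was among the highest, at 85.2, 80.9 and 136 CPM with PEEPA-P5, against 89.2, 79.0 and 100.5 CPM with vehicle, as were Zfand2a, Dedd2, Chordc1, Cacybp and Mrpl18. Hspe1, the small chaperonin of mitochondria, was among the lowest, at 94.6, 79.6 and 45.8 CPM with PEEPA-P5, against 57.9, 53.2 and 54.7 CPM with vehicle, as was its partner Hspd1, at 254, 252 and 135 CPM, against 193, 196 and 166 CPM with vehicle. Zfand2a had the smallest p of the list, at 33.0, 38.8 and 48.5 CPM with PEEPA-P5, against 24.5, 28.6 and 30.6 CPM with vehicle (edgeR adjusted p 0.412). Bag3, Zfand2a, Dedd2, Chordc1, Cacybp and Mrpl18 were named after their values were seen. Ubb, a ubiquitin gene and the most abundant of the list, had a log2 fold change of -0.12.

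The mitochondrial chaperones had 6 of 13 genes higher with a median of -0.08, and Hspa9, their HSP70, averaged 302 ± 43.3 CPM in PEEPA-P5 libraries and 343 ± 29.0 CPM in vehicle libraries (SD, n = 3 each). The chaperones of the endoplasmic reticulum had 14 of 17 genes higher with a median of 0.15 and 4 higher and 0 lower at an unadjusted p under 0.05, beside 5.92% and 6.14% over all genes. Hspa5, their HSP70, averaged 724 ± 24.0 CPM in PEEPA-P5 libraries and 652 ± 2.95 CPM in vehicle libraries (SD, n = 3 each). P4hb and Calr had log2 fold changes of 0.27 and 0.14.

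**Figure D5:**
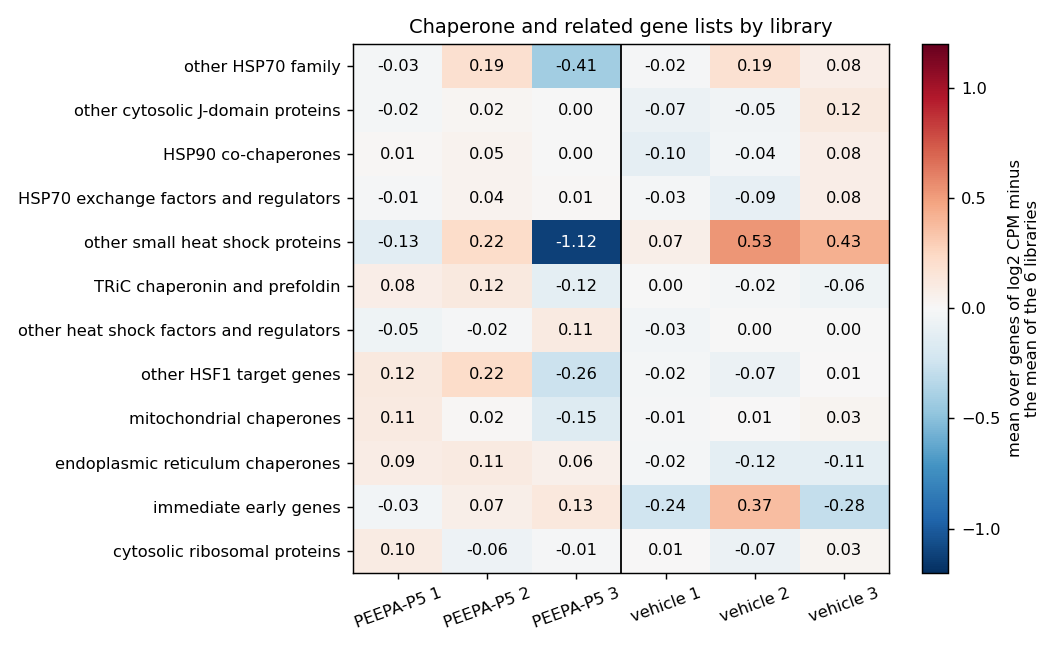
Mean log2 CPM of each gene list per library, relative to the mean of the 6 libraries, without the 10 core genes. The small heat shock proteins are at -1.12 in PEEPA-P5 3, and the immediate early genes at 0.37 in vehicle 2.

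Immediate early genes, which respond within minutes to handling or injury, were measured beside the heat shock genes. Of 21 tested, 15 were higher with a median of 0.20, or -0.01 without PEEPA-P5 3, and 6 were higher and 1 lower at an unadjusted p under 0.05 in edgeR's test, beside 5.92% and 6.14% over all genes. Without PEEPA-P5 3, 2 were higher and 1 lower, beside 3.85% and 4.92%. Their highest list mean was in vehicle 2, 0.37 log2 units over their average, while PEEPA-P5 3 stood at 0.13. Klf4, Junb and Jund had log2 fold changes of 0.37, 0.05 and 0.66. Genes of cytosolic ribosomal proteins, with 14 of 20 higher, had a median of 0.02, and Rplp1, Rpl10 and Rps2 had log2 fold changes of 0.11, 0.04 and 0.02.

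The genes most like the mean of Hspa1a, Hspa1b, Hsph1 and Dnajb1 over the 6 libraries were looked for among 12485 genes with a symbol that is not a predicted model. Stk4, Frmd8, Susd6 and Yaf2 were among those whose profile followed this mean most closely, with Pearson r of 0.998, 0.997, 0.993 and 0.990 in log2 CPM. An r does not measure the size of a change, and these genes moved little. They ran from 50.1 to 62.9, 29.8 to 40.5, 46.9 to 72.8 and 20.1 to 24.5 CPM, where Hspa1a ran from 1.45 to 68.0 CPM. Without PEEPA-P5 3 the same r were 0.986, 0.978, 0.948 and 0.974 over 5 libraries, which were also among the 6 used to choose these genes. In all, 303 genes had an r above 0.9. These values describe 6 libraries, 1 of which lies far from the rest in Hspa1a and Hspa1b, and carry no test.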

How the data were processed

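The submitters' processing notes list the tools Bowtie2 2.2.5 and RSEM 1.2.12 with build mm9, but not their roles or settings. The table that the authors deposited gives, per the file headers, read counts per gene and library, of which 9.82% were not whole and which are treated here as RSEM's expected counts, beside FPKM and TPM. Expected counts were rounded to whole numbers. FPKM, as deposited by the authors, and their group means were not used. TPM as deposited gave levels between genes. No source used here states the strand setting, so antisense reads cannot be told apart.

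The members and gene lists were chosen with earlier results of these data known. The test was edgeR 4.0.16 under R 4.3.3 (robust quasi-likelihood test, TMM factors, edgeR's expression filter leaving 13071 genes, Benjamini-Hochberg adjustment over all of them at 0.05), PEEPA-P5 over vehicle, without covariates. Standard errors come from that fit's fold change and F. CPM uses TMM-scaled library sizes, and log2 CPM a prior count of 2. The fit was tested on simulated counts, where it missed some of the changed genes and made some false calls. The smallest chi-square per degree of freedom between 2 libraries was 13.3, so no pair agreed within sampling noise.

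Named genes were the 10 members, the 3 most abundant tested genes of each list and the 5 most like the inducible members; a few others are marked where they stand, and some that the rule names are not reported here. Alternatives were DESeq2 1.42.0, limma 3.58.1 (voom, and log2 TPM with pseudocounts of 1 and 0.1), other scaling, other filters, each library left out, and a replicate block. The libraries are numbered 1 to 3 in both groups. Deviations of same-numbered libraries from their group means correlated at 0.237, 0.346 and 0.235 over all genes. Those of differently numbered libraries correlated at -0.349 to 0.176. Deviations within a group cancel out, so these correlations are not independent of each other. The numbers were taken as possible pairs from the data, not from the labels. Shared 31-base stretches were counted in GENCODE M21 transcripts.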

Additional observations from a re-analysis of the deposited data

How the results depend on the processing

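Under 17 alternatives, none of the 10 genes passed the adjusted threshold, though DESeq2 gave no p for Hspa1a. The smallest adjusted p was 0.107, for Hsp90aa1 with DESeq2. Of 170 fold changes, 155 kept their sign and 15 did not. Hspa8, Hsph1, Hsp90aa1 and Hsp90ab1 kept theirs throughout, but leaving out 1 library at a time gave -0.53 to -0.04 for Hspa8, 0.19 to 0.72 for Hsph1, 0.55 to 1.07 for Hsp90aa1 and 0.22 to 0.54 for Hsp90ab1. Leaving out 1 library at a time, the log2 fold change ranged from -0.42 to 3.41 for Hspa1a, from -0.54 to 2.77 for Hspa1b, from -0.19 to 0.38 for Dnajb1, from -0.18 to 0.38 for Dnaja1, from -0.15 to 1.11 for Hspb1 and from -0.0061 to 0.13 for Hsf1. Without both libraries numbered 3 it was -0.18 for Hspa1b, -0.15 for Dnajb1 and -0.0211 for Dnaja1. For Hspb1 it was -0.0689 with limma-voom, -0.0216 on log2 TPM with a pseudocount of 1 and -0.21 with 0.1. For Hsf1 it was -0.0515 on log2 TPM with a pseudocount of 1, -0.0549 with 0.1, and -0.026 with library totals alone, which moved the median of all genes to -0.09. The cause was not tested.

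Over all genes DESeq2 called 101, and the count called with each library left out ran from 0 to 1. The number of the 10 genes at an unadjusted p under 0.05 was 2 with DESeq2 and 0 on log2 TPM with either pseudocount. In edgeR's test it was 5 without both libraries numbered 3, and ran from 0 to 4 with each library left out. In the fit with the replicate block the fold change was 1.36 for Hspa1a, 0.86 for Hspa1b, 0.72 for Hsp90aa1 and 0.09 for Hspb1, with adjusted p of 0.502, 0.639, 0.364 and 0.950 by edgeR, and no call changed. List medians moved by more than the spread between libraries in 24 of 204 cases. Depth limits Hspb1 most, with 9 expected counts in PEEPA-P5 3.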
